A study of Mus musculus with 48 samples.

Results

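The metabotropic glutamate receptors are the G protein-coupled receptors for the transmitter glutamate. Expression of 6 of them, Grm2, Grm3, Grm4, Grm5, Grm7 and Grm8, was followed in RNA-seq libraries of mouse astrocytes, the glial cells that take up glutamate and potassium around synapses. The members were the rows of the deposited tables that carry these 6 symbols, out of 24421 symbols, and all 6 were present in each of the 6 tables. The series holds 48 libraries in 15 groups. Cortex, hippocampus and olfactory bulb were each sampled on postnatal days 1, 7 and 14 (P1, P7 and P14), with 3 libraries in each group except cortex P14 with 4. The labels of these ages give neither a genotype nor a treatment. At P28 the labels name a Gabbr1 control and a Gabbr1 cKO genotype, where Gabbr1 is the gene for 1 subunit of the receptor GABA-B and cKO stands for a conditional knockout, in which the gene is removed from chosen cells only. Cortex had 4 control and 4 cKO libraries, hippocampus 2 and 4, and olfactory bulb 3 and 3. Tamoxifen, the drug that switches on inducible recombinases, is labelled for both genotypes in hippocampus and olfactory bulb, and in cortex for 2 controls and 1 cKO library of a later round. The remaining cortex P28 libraries, 2 controls and 3 cKO, carry no treatment label. The labels give neither the driver of the recombinase nor whether libraries came from separate animals, so p-values measure the spread between these libraries, which may be technical.

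The family is divided into groups by sequence and coupling. Grm5 belongs to group I, which couples through Gq to phospholipase C and releases calcium from internal stores. Grm2 and Grm3 form group II, and Grm4, Grm7 and Grm8 belong to group III. Both of these groups couple through Gi/o and lower cyclic AMP. In the brain Grm3 and Grm5 are known as the receptors of the family that astrocytes carry, whereas Grm2 and group III receptors are known mainly from neurons, often at presynaptic terminals. A loss of Grm5 from astrocytes as they mature is textbook knowledge for the cortex and hippocampus.

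Libraries held between 1773226 and 15008466 reads assigned to genes. Values are normalized reads, that is, gene reads divided by 1 factor per library, and each table was scaled on its own, so levels were compared only within a table. Gabbr1 followed the genotype labels in each region, with the highest cKO library at 211 normalized reads and the lowest control at 927 in cortex. The same pair of values was 380 and 780 for hippocampus, and 99.5 and 184 for olfactory bulb. Reads of the ribosomal transcript Rn45s made up 0.594% of hippocampus P28 cKO replicate 2 and 0.476% of olfactory bulb P28 control replicate 2, against 13.7% to 38.0% elsewhere. These 2 libraries stand apart, and P28 values are given with and without them where it matters. The labelled cell type was checked on 8 astrocyte markers, including Aqp4, Gja1 and Aldh1l1, none of which was at 0 in any group. In cortex their summed level was 5937-8344 normalized reads at P1 and 36191-41989 at P14. In hippocampus it was 3481-4013 at P1 against 37056-40927 at P14, and in olfactory bulb 1130-1419 against 26097-29446. Markers of neurons and neuroblasts were also present, and their sums moved the other way from P1 to P14, as given below. In bulk libraries, fewer cells of a type and less RNA per cell cannot be told apart.

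Per kilobase of exon, Grm3 was the most abundant of the 6 genes in all 15 groups. Its mean was 454 ± 58.4 normalized reads per kb at P1 in cortex (SD, n = 3), against 76.8 ± 4.40 for Grm5 and 14.7 ± 3.89 for Grm7. Grm2, Grm8 and Grm4 followed, and the last pair overlapped. Grm5 came second in 14 groups. The exception was olfactory bulb at P1, where Grm3 (18.4 ± 1.12) was followed by Grm8 (8.41 ± 2.54), Grm4 (6.71 ± 2.51) and Grm2 (6.09 ± 2.56), whose libraries overlapped, and then by Grm5 at 3.28 ± 0.400. Grm3 and Grm5 together made up 95.5% ± 1.52 of the per-kb total of the 6 genes in cortex at P1 and 98.3% ± 0.0646 in hippocampus (SD, n = 3 each). In the olfactory bulb this share was 50.8% ± 7.76 at P1, 79.7% ± 7.21 at P7 and 99.4% ± 0.371 at P14. By P14 it was 99.9% in cortex and between 99.9% and 100% in each hippocampus library.

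Grm5 (chr7:87584168-88134907 on GRCm38, plus strand), the Gq-coupled member, followed a different course in each region. In cortex it was at 777, 836 and 748 normalized reads at P1, at 1806, 1832 and 2019 at P7, and at 303, 367, 344 and 369 at P14. The 3 ages did not overlap, and P14 lay below both earlier ages. The P1, P7 and P14 means were 787 ± 45.0, 1886 ± 116 and 346 ± 30.8 (SD, n = 3, 3 and 4), a 2.40-fold rise followed by a level 5.45-fold lower. On the log2(value + 1) scale, which understates changes of low genes, the steps were 1.26 (SE 0.10, adjusted p = 7.59e-07, limma with Benjamini-Hochberg adjustment, as throughout) and -2.45 (SE 0.09, adjusted p = 2.75e-09). From P1 to P14 the change was -1.19 (SE 0.09, adjusted p = 1.22e-07), beside a median of -0.27 over all cortex genes. With TMM scaling, another way to set library factors, that median was 0.01 and the Grm5 change -0.91.

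In hippocampus Grm5 rose and then stayed near its P7 level. Its P1 libraries held 317, 428 and 315 normalized reads, its P7 libraries 1072, 1027 and 1256, and its P14 libraries 884, 1169 and 933. P1 lay below the later ages, and P7 and P14 overlapped. The step from P1 to P7 was 1.67 (SE 0.16, adjusted p = 2.35e-05, limma). From P7 to P14 the change was -0.17, with a 95% interval from -0.53 to 0.18 (adjusted p = 0.451, limma).

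In olfactory bulb Grm5 rose at both steps. It started at 38.4, 31.7 and 30.9 normalized reads at P1, reached 646, 493 and 210.0 at P7, and stood at 1324, 1134 and 1176 at P14. The ages did not overlap, although the P7 libraries spread widely. The mean was 13.4-fold higher at P7 than at P1, and 36.0-fold higher at P14 than at P1. The steps were 3.56 (SE 0.33, adjusted p = 1.98e-04, limma) and 1.57 (SE 0.33, adjusted p = 0.00259, limma).

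**Figure D1:**
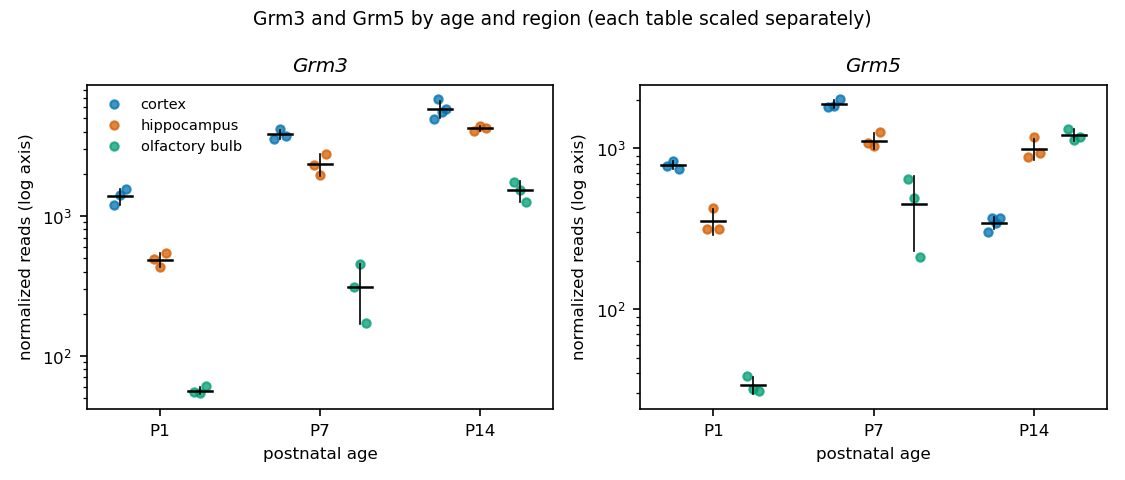
Normalized reads (log axis) of Grm3, left, and Grm5, right, by postnatal age; each point is a library, bars are group means and vertical lines ± 1 SD, and each region was scaled on its own. Grm3 rose from P1 to P14 in all 3 regions, while Grm5 ended at 346 in cortex, below its P1 mean of 787, and at 1211 in olfactory bulb, above its P1 mean of 33.6.

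Grm3, the Gi/o-coupled receptor of group II that also responds to the peptide NAAG, rose at every step in every region. In cortex the libraries held 1198, 1403 and 1552 normalized reads at P1, 3580, 4162 and 3760 at P7, and 4946, 6847, 5584 and 5865 at P14. In hippocampus they held 491, 429 and 541 at P1, 2323, 1960 and 2795 at P7, and 4073, 4409 and 4257 at P14. In olfactory bulb they held 54.8, 53.7 and 60.1 at P1, 309, 455 and 170 at P7, and 1761, 1545 and 1258 at P14. No 2 ages overlapped in any region. The P14 mean was 4.20-fold above P1 in cortex, 8.73-fold in hippocampus and 27.1-fold in olfactory bulb. The corresponding log2 changes were 2.07 (SE 0.12, adjusted p = 5.14e-09), 3.13 (SE 0.14, adjusted p = 1.46e-08) and 4.72 (SE 0.29, adjusted p = 4.15e-07) by limma. The later step was the smaller one in cortex (0.59, adjusted p = 8.88e-04) and hippocampus (0.86, adjusted p = 9.77e-04), whereas in olfactory bulb the steps were 2.34 and 2.38 by limma.

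Grm2, the other receptor of group II, was low, and from P1 to P14 it ended below its starting level. Cortex libraries held 36.4, 34.8 and 20.5 normalized reads at P1, 11.5, 2.32 and 13.6 at P7, and 0.378, 1.26, 7.57 and 0 at P14. P1 lay above the other ages, which overlapped. Grm2 entered the cortex fit through its P1 libraries, so its adjusted p-values for falls support nothing beyond these values. The step from P1 to P7 was -1.86 and not called (adjusted p = 0.0855, limma), although it was with a pseudocount of 8 (adjusted p = 0.0114). The change from P1 to P14 was -3.75 (SE 0.74, adjusted p = 5.25e-04, limma). From P7 to P14 it was -1.90 (adjusted p = 0.0460, limma), a call lost under each of the 5 alternative settings (adjusted p from 0.0593 to 0.113) and on leaving out either of 2 P7 or any of 3 P14 libraries. In olfactory bulb Grm2 stood at 42.7, 29.1 and 17.6 at P1, at 65.8, 45.0 and 46.3 at P7, and at 0, 0 and 4.17 at P14, where no library held more than 3 reads. Every P7 library lay above every P1 library, but that step of 0.86 was not called (adjusted p = 0.508, limma). Against the floor of 3 reads per library it was at least 6.27-fold lower at P14 than at P1 and at least 11.0-fold lower than at P7. In hippocampus Grm2 stood at 3.92, 4.01 and 6.14 at P1 and at 1.21, 3.75 and 8.52 at P7, and no read was assigned to it in the 3 P14 libraries. Against the same floor it was there at least 1.18-fold lower at P14 than at P1.

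Because the group II pair ended P14 on opposite sides of its P1 levels, the sequence just before each start site is shown, from RefSeq on GRCm38.p6, the assembly also called mm10. The Grm2 window is chr9:106656110-106656359 and the Grm3 window chr5:9725353-9725602, both on the minus strand and written 5′ to 3′ in the direction of the gene. Capitals mark TTGGC or its reverse complement GCCAA, one arm of the palindrome bound by nuclear factor I proteins, regulators of astrocyte genes.
Grm2: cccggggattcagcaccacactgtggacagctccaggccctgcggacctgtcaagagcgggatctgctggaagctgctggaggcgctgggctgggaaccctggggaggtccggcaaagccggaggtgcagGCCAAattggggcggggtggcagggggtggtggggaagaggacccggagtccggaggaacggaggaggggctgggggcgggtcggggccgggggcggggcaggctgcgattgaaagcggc
Grm3: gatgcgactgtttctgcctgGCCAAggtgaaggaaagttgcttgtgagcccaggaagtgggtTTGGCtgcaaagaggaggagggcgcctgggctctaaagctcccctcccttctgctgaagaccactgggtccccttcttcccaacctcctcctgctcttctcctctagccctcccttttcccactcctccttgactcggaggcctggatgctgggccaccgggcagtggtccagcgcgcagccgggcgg
The Grm2 window holds the motif on 1 occasion and the Grm3 window on 2, on either strand. Of 32851 windows of the same length, 41.5% hold it at least 1 time and 11.5% at least 2 times. A match is a description of letters and not a binding site. The Grm2 window has 71.2% G and C with 16 CpG dinucleotides, the Grm3 window 62.4% with 8, and the median window 52.4% with 6. Windows were found for 4 of the 6 members. In the GENCODE annotation of this build Grm2 spans chr9:106643095-106656082 and Grm3 chr5:9485541-9725170, both on the minus strand. The windows follow the RefSeq starts, which lie upstream of these GENCODE starts, further so for Grm3. They therefore do not adjoin the GENCODE starts.

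Grm7 (chr6:110645581-111567230, plus strand), which sits at presynaptic terminals of neurons, was the most abundant of the group III receptors per kb in cortex over these ages, with 110, 86.9 and 63.9 normalized reads at P1, 54.2, 20.1 and 120 at P7, and 3.78, 3.14, 6.94 and 4.67 at P14. P1 and P7 overlapped and P14 lay below both. The change from P7 to P14 was -3.25 (SE 0.48, adjusted p = 9.78e-05, limma). In hippocampus Grm7 went from 8.19, 9.80 and 9.22 at P1 to 16.3, 28.2 and 68.1 at P7 and to 0, 0 and 1.79 at P14. P7 was the high age, and at P14 no library held more than 3 reads, so the level was at least 9.46-fold lower than at P7. The rise to P7 was 1.70 and missed the threshold by limma (adjusted p = 0.127), but passed it with a pseudocount of 8 (0.0378), edgeR (0.0486) and DESeq2 (0.0188). In olfactory bulb Grm7 stood at 1.79, 3.52 and 3.31 at P1, at 17.8, 20.0 and 22.0 at P7, and at 0, 0 and 11.1 at P14. It was again highest at P7, and with no filter the change from P7 to P14 was -3.18 (adjusted p = 0.0151, limma).

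In the olfactory bulb the other group III receptors, Grm8 and Grm4, were clearly detected at P1 and P7. Grm8 (chr6:27275119-28135178, minus strand) held 112, 69.6 and 67.8 normalized reads at P1, 112, 86.5 and 79.5 at P7, and 17.9, 2.76 and 19.4 at P14. Its earlier ages overlapped and P14 lay below both, with a change from P7 of -3.03 (SE 0.57, adjusted p = 0.00127, limma). Grm4 (chr17:27422387-27521403, minus strand), known from presynaptic terminals, stood at 56.6, 27.3 and 36.4 at P1, at 89.1, 47.9 and 45.1 at P7, and at 11.9, 6.89 and 2.78 at P14. It followed the same order of ages, with a change from P7 of -3.01 (SE 0.51, adjusted p = 6.71e-04, limma). In cortex Grm8 had means of 18.4, 16.5 and 1.54 and Grm4 of 8.99, 6.94 and 0.835 at P1, P7 and P14. From P1 to P14 Grm8 changed there by -3.43 on the log2 scale (adjusted p = 0.00101, limma), and Grm4, tested with no filter, by -2.60 (adjusted p = 7.39e-04, limma). In hippocampus both were under 9 normalized reads in every library of P1, P7 and P14, and Grm4 was at 0 in the 3 P14 libraries. The P1 mean of Grm4 there, 2.95, lay under the P14 floor of 3.97, so no fall is shown. The microRNA gene Mir592 lies inside Grm8 on the same strand, and how reads shared by both were assigned is not given in the sources used here. Grm2 and Grm7 have annotated antisense genes, Gm28111 and Gm20387, whose reads could be counted with them if strand was not used.

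**Figure D2:**
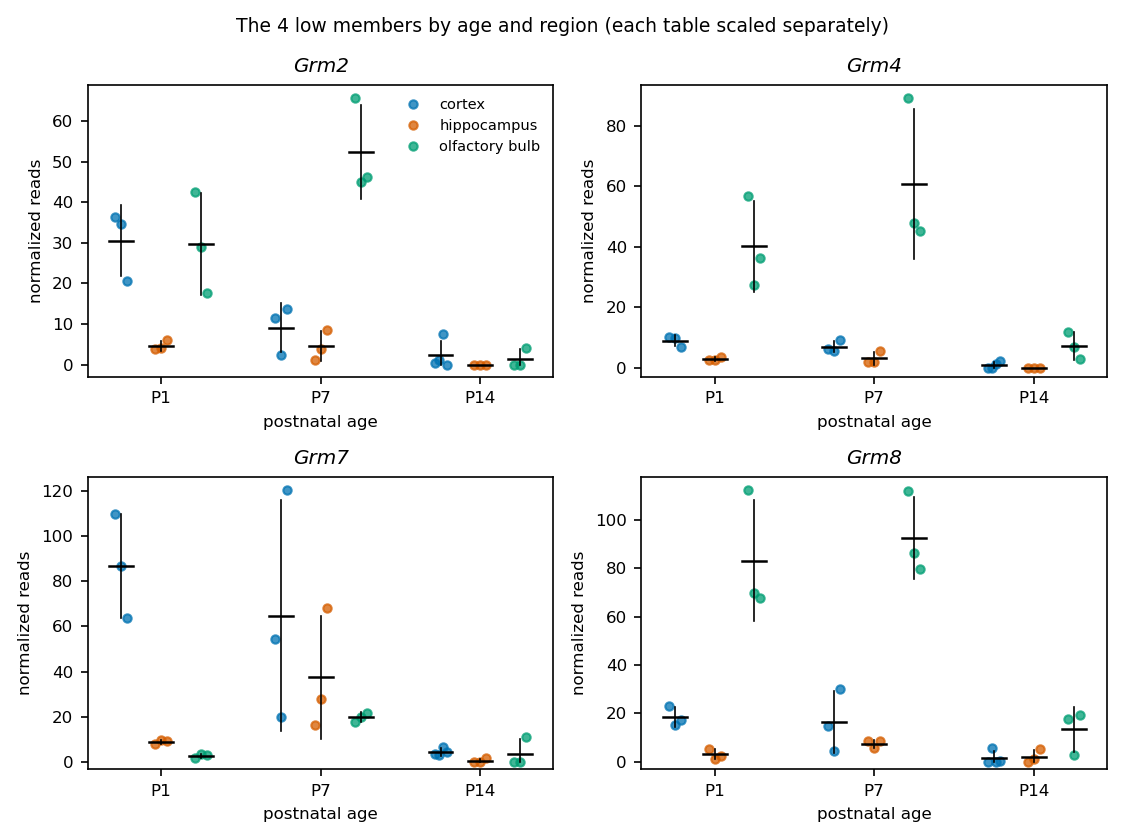
Normalized reads (linear axes) of Grm2, Grm4, Grm7 and Grm8 by postnatal age in the 3 regions; each point is a library, bars are group means and vertical lines ± 1 SD, with each region scaled on its own. Every cortex and hippocampus library at P14 lies under 9 normalized reads in all 4 panels, and the olfactory bulb reaches 19.4 there, for Grm8.

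Genes entered a fit with a mean of at least 10 normalized reads over its table. That kept 5 members in cortex (all but Grm4), 3 in hippocampus (Grm3, Grm5 and Grm7) and 5 in olfactory bulb (all but Grm7). From P1 to P7 the members that rose in cortex were Grm3 and Grm5 alone, 2 of 5, where 15.6% of 11822 genes rose. The same pair rose in hippocampus, 2 of 3 against 11.2% of 11578 genes, and in olfactory bulb, 2 of 5 against 7.59% of 11490 genes. From P7 to P14, 1 member rose and 4 fell in cortex (18.6% and 31.3% of all genes). In hippocampus 1 rose and 1 fell (12.5% and 17.7%), and in olfactory bulb 2 rose and 3 fell (20.4% and 26.6%). From P1 to P14, 1 rose and 4 fell in cortex (24.0% and 40.3%). In hippocampus 2 rose and 1 fell (21.0% and 28.5%), and in olfactory bulb 2 rose and 3 fell (24.8% and 31.4%). The low members reached the mean through their earlier ages. Their part in these counts, and their adjusted p-values for falls to P14, therefore support nothing beyond their own values.

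**Figure D3:**
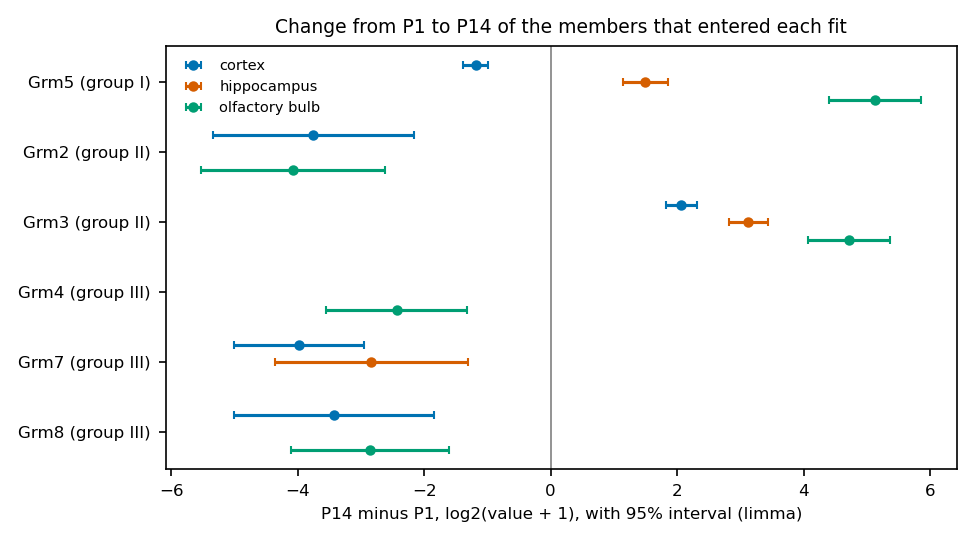
Change from P1 to P14 on the log2(value + 1) scale by limma, with 95% intervals, for the members that entered the fit of each region. Grm3 lies right of 0 in the 3 regions and Grm5 left of 0 in cortex only (-1.19). The 7 intervals drawn for Grm2, Grm4, Grm7 and Grm8 lie left of 0. These genes entered through their earlier ages, so that shared direction supports nothing. Of those not drawn, Grm7 in olfactory bulb (-0.72) and Grm8 in hippocampus (-0.64) were not called with no filter. Grm4 in cortex and, near the floor, Grm2 and Grm4 in hippocampus were.

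The changes of Grm3 and Grm5 differed between regions. A contrast of changes, in which the separate scaling of the tables cancels, was fitted over 28 libraries and 10838 genes. For Grm5 the change from P1 to P14 was higher in hippocampus than in cortex by 2.68 (95% interval 2.03 to 3.33, adjusted p = 1.32e-06, limma), where 14.2% of genes were called in either direction. It was higher in olfactory bulb than in cortex by 6.32 (5.67 to 6.97, adjusted p = 7.11e-14, limma; background 23.5%) and than in hippocampus by 3.64 (2.97 to 4.31, adjusted p = 1.04e-08, limma; background 18.2%). For Grm3 the order of the regions was the same with smaller gaps. The olfactory bulb exceeded cortex by 2.65 (2.06 to 3.25, adjusted p = 6.77e-08, limma) and hippocampus by 1.59 (0.98 to 2.20, adjusted p = 3.45e-04, limma). Hippocampus exceeded cortex by 1.06 (0.47 to 1.65, adjusted p = 0.0125, limma), but with TMM scaling this was 0.80 and no longer called (adjusted p = 0.0584).

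The ratio of Grm5 to Grm3 reads within a library does not depend on scaling. In cortex it was 0.576 ± 0.0856 at P1, 0.494 ± 0.0493 at P7 and 0.0598 ± 0.00420 at P14 (SD, n = 3, 3 and 4). In hippocampus it was 0.742 ± 0.223, 0.478 ± 0.0401 and 0.234 ± 0.0271 (n = 3 each). In olfactory bulb it was 0.601 ± 0.0933, 1.47 ± 0.543 and 0.807 ± 0.111 (n = 3 each). P1 and P14 did not overlap in any region, and the regions did not overlap at P14. The two-sided p of the exact permutation test doubles the smaller tail. Each of these 6 tests gave the smallest p possible in this form, 0.0571 for 4 libraries against 3 and 0.1 for 3 against 3 (0.15 after adjustment over 9 comparisons). A p under 0.05 cannot be reached by this form of the test with these numbers. At P28 the mean ratio in controls was 0.0469 for cortex and 0.0942 for hippocampus, against 0.870 for olfactory bulb.

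**Figure D4:**
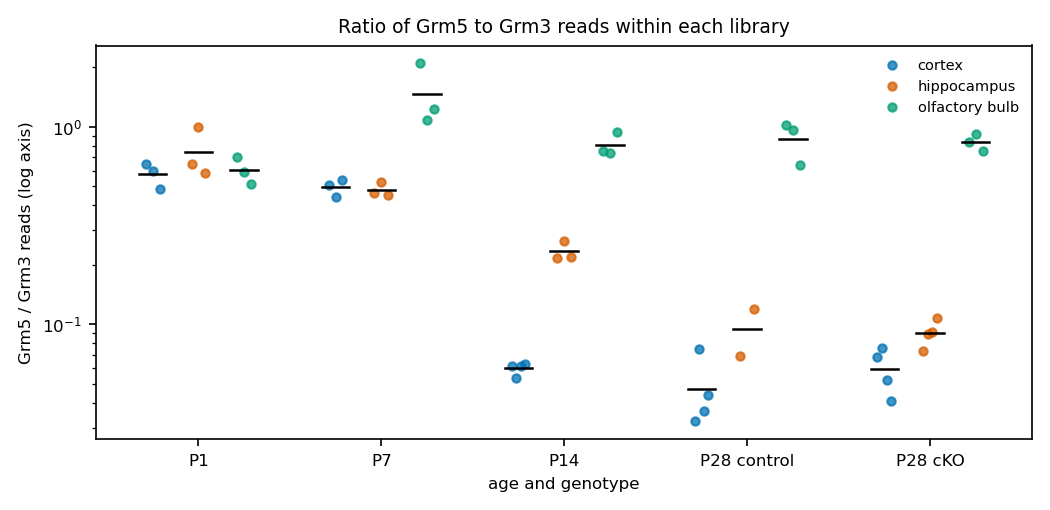
Ratio of Grm5 to Grm3 reads (log axis) in each of the 48 libraries by age and, at P28, genotype; points are libraries and bars are group means. At P14 cortex and hippocampus stand lower than at P1, at 0.0598 and 0.234, while the olfactory bulb stands at 0.807. The P28 control means are 0.0469, 0.0942 and 0.870 in the same order.

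Per 1000 reads of the 8 astrocyte markers, which is also free of scaling, Grm3 changed less. It stood at 190, 191 and 148 in cortex at P1, P7 and P14, at 132, 145 and 109 in hippocampus, and at 43.9, 88.2 and 54.1 in olfactory bulb. Grm5 stood at 110, 94.7 and 8.84 in cortex, at 94.5, 68.7 and 25.7 in hippocampus, and at 26.5, 129 and 43.3 in olfactory bulb. On this measure the mean of Grm5 in cortex and hippocampus was lowest at P14, the cortex P1 and P7 libraries overlapped (89.6-131 and 85.8-112), and in olfactory bulb both genes were highest at P7. These ratios were not tested.

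Markers of other cells changed as well. In cortex the summed level of 10 neuron markers was 6726-8089 normalized reads at P1 and 1738-2059 at P14. In hippocampus it was 4326-4472 against 2163-2469, and in olfactory bulb 8229-9408 against 3359-3585. Of the 10, 8 fell from P1 to P14 in both cortex and hippocampus, while 7 fell and 1 rose in olfactory bulb. Among all genes 40.3%, 28.5% and 31.4% fell and 24.0%, 21.0% and 24.8% rose in cortex, hippocampus and olfactory bulb. The sum of 5 neuroblast markers was 7096-11787 at P1 and 267-348 at P14 in cortex, where 5 fell. In hippocampus it was 13951-20461 against 606-1030 (4 fell), and in olfactory bulb 24231-26553 against 2355-4136 (5 fell). None of the neuron markers was at 0 at P14, and of the neuroblast markers only Dlx1 was, in hippocampus. From P1 to P14 the means of Grm2, Grm4, Grm7 and Grm8 ran in the same direction, except Grm7 in olfactory bulb (2.87 and 3.70, overlapping). Grm8 in hippocampus also overlapped between these ages. The neuroblast sum at P7 was 1444-2824 in hippocampus and 8049-17091 in olfactory bulb, below P1. The neuron marker sum at P7 was 2696-4082 in hippocampus, below P1, and 7475-10257 in olfactory bulb, overlapping P1. From P1 to P7, 3 of the 10 neuron markers rose and 0 fell in olfactory bulb, where 7.59% of all genes rose. In hippocampus 1 rose and 2 fell, where 11.2% of all genes rose. At P7 the Grm7 mean was 4.14-fold above P1 in hippocampus and 6.93-fold in olfactory bulb. In cortex the neuroblast sum (2009-2492), the neuron marker sum (2997-6489) and the means of Grm2, Grm4, Grm7 and Grm8 were lower at P7 than at P1. The part of these cells in the falls, or in the P7 level of Grm7, was not tested. Of 7 oligodendrocyte markers 6, 4 and 4 were tested in cortex, hippocampus and olfactory bulb, and 5, 4 and 4 rose from P1 to P14.

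The summed level of 6 markers of oligodendrocyte precursors was 1204-1292 normalized reads at P1, 1638-2265 at P7 and 1048-1214 at P14 in cortex. P7 was the high age, as for Grm5 there, but P1 and P14 overlapped, which for Grm5 they did not. In hippocampus it was 363-564, 1171-1588 and 926-1035, and in olfactory bulb 131-168, 536-1109 and 1176-1227. P1 was the low age in both regions, as for Grm5, and in olfactory bulb the sum rose at both steps, as Grm5 did. In hippocampus P7 lay above P14, whereas for Grm5 these ages overlapped. From P1 to P7, all 6 rose in olfactory bulb, and 4 did in each of the other regions. Over that step 7.59% of all genes rose in olfactory bulb, 15.6% in cortex and 11.2% in hippocampus. The part of these cells in the course of Grm5 was not tested. Microglia markers rose from P1 to P14, 6 of 6 in cortex and 3 of 3 tested in each of the other regions. All 6 endothelial markers rose in olfactory bulb over that span, from a sum of 19.8-24.0 to 137-1111, while none was called in cortex. In hippocampus 2 fell from P1 to P14 and all 6 from P7 to P14, to a sum of 1.79-52.9.

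Ligand supply and removal was the list around the receptors with the most uniform course. Of 8 genes 7 were tested, and from P1 to P14 5 rose and 2 fell in each region, with medians of 2.58, 2.60 and 3.45 in cortex, hippocampus and olfactory bulb beside -0.27, -0.29 and -0.24 over all genes. Among all genes 24.0%, 21.0% and 24.8% rose and 40.3%, 28.5% and 31.4% fell in these regions, also for the lists below. Slc1a2, the main astrocyte glutamate transporter, rose by 5.14, 5.87 and 5.17 on the log2 scale. Glul, which converts glutamate to glutamine, rose by 3.10, 4.32 and 4.78, and Slc7a11, the cystine-glutamate exchanger, by 2.68, 3.66 and 2.26. Rimkla and Rimklb, which make NAAG, fell, with changes of -1.79, -2.83 and -2.72 and of -1.66, -1.02 and -0.59. Adjusted p by limma was between 1.65e-11 and 0.0286 for these 5 genes.

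The Gq arm, through which Grm5 acts, was mixed. Of its 12 genes 10, 10 and 11 were tested, and from P1 to P14 3 rose and 5 fell in cortex (3 and 3 with TMM scaling), 5 rose and 1 fell in hippocampus, and 6 rose and 2 fell in olfactory bulb. The medians were -0.35, 0.50 and 0.55, beside the medians and shares over all genes given above. Itpr2, the main calcium release channel of astrocyte stores, rose by 1.98, 2.80 and 5.44, and the phospholipase gene Plcb3 by 0.55, 1.45 and 2.499. Its relative Plcb4 fell, with changes of -1.19, -1.53 and -1.63. The adjusted p of these 3 genes was at most 0.00147 by limma.

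In the Gi/o arm, which serves Grm3 and the other 4 members, 12 of 13 genes were tested. From P1 to P14 3 rose and 7 fell in cortex (4 and 6 with TMM scaling), 4 rose and 5 fell in hippocampus, and 4 rose and 3 fell in olfactory bulb. Among all genes 24.0%, 21.0% and 24.8% rose and 40.3%, 28.5% and 31.4% fell. The list medians were -0.58, -0.39 and -0.57, beside -0.27, -0.29 and -0.24 over all genes. The adenylyl cyclase genes Adcy2 and Adcy8 rose by 3.35, 4.43 and 4.28 and by 0.77, 4.37 and 4.95. In cortex Adcy8 was highest at P7, with means of 37.8, 146 and 65.5 normalized reads at P1, P7 and P14. Gnao1, the alpha subunit of Go, rose by 1.30, 1.83 and 0.53, whereas the Gi subunit genes Gnai1 and Gnai3 fell, with changes of -0.66, -1.19 and -1.57 and of -0.50, -0.63 and -0.60. The adjusted p of these 5 genes was at most 0.00759 by limma.

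Among 13 genes for scaffolds and binding partners, such as the Homer proteins that hold Grm5, 12 were tested. From P1 to P14 1 rose and 8 fell in cortex (2 and 6 with TMM scaling), 2 rose and 2 fell in hippocampus, and 2 rose and 6 fell in olfactory bulb. Dlgap1 rose by 0.83, 1.97 and 2.31, while Elfn2, an adhesion protein that binds group III receptors, fell, with changes of -0.91, -3.18 and -2.83. Cyth2 likewise gave -1.16, -2.11 and -0.87. Of 7 desensitization genes 2 rose and 3 fell in cortex, 1 rose and 3 fell in hippocampus, and 1 rose and 2 fell in olfactory bulb. The shares over all genes given above apply to these 2 lists as well. Arrb1, the arrestin that uncouples receptors, rose by 1.61, 1.49 and 1.55, and the receptor kinase gene Grk5 fell, with changes of -1.56, -4.30 and -0.91. The adjusted p of these 5 genes was at most 0.0366 by limma.

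Over the 28 developmental libraries, with each table centred on its own mean, the genes most like Grm3 among 10463 were Aqp4 (Pearson r 0.986), Kank1 (0.986) and Hapln1 (0.986). Aqp4 is one of the 8 astrocyte markers. Those most like Grm5 were B3gat2 (0.966), Cdh13 (0.937) and Frem2 (0.934). Libraries of a group share age and region, so these values describe likeness in these libraries only.

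At P28 no receptor gene differed detectably between Gabbr1 cKO and control. No member that entered a fit was called by limma in cortex (2 entered), hippocampus (3) or olfactory bulb (5), where 0.00982%, 0% and 0% of genes were called. Gabbr1 itself was thus not called by limma in hippocampus or olfactory bulb. Its cKO mean there was 29.8% and 34.9% of control, with no overlap of libraries. A change of that size in a receptor gene could therefore be missed. The unadjusted p was under 0.05 for 221, 296 and 349 of all genes tested, edgeR called 1, 0 and 0 genes and DESeq2 1, 1 and 13, no member among them.

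Grm3 at P28 was at 2907, 3133, 2107 and 2059 normalized reads in cortex controls and at 2832, 2498, 2544 and 1940 in cKO. In hippocampus the controls held 1239 and 1115 and the cKO libraries 1637, 2123, 1346 and 1271. In olfactory bulb the controls held 758, 642 and 540 and the cKO libraries 664, 605 and 598. The genotypes overlapped in cortex and olfactory bulb, and in hippocampus each cKO library lay above both controls. The cKO minus control change was -0.04 in cortex (95% interval -0.46 to 0.37), 0.41 in hippocampus (-0.24 to 1.06) and -0.04 in olfactory bulb (-0.53 to 0.44), with adjusted p by limma of at least 0.910. Without the libraries poor in Rn45s the change was 0.26 in hippocampus and -0.04 in olfactory bulb, again not called. The hippocampus astrocyte marker sum was 18812-24152 in controls and 22001-39663 in cKO, and per 1000 of these marker reads Grm3 was 56.0 in controls and 53.8 in cKO.

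Grm5 at P28 was at 94.0, 236, 76.7 and 89.9 normalized reads in cortex controls and at 194, 189, 133 and 79.6 in cKO. In hippocampus the controls held 86.0 and 133 and the cKO libraries 120, 191, 124 and 136. In olfactory bulb the controls held 768, 614 and 344 and the cKO libraries 553, 552 and 452. The genotypes overlapped in each region. The change was 0.33 in cortex (-0.45 to 1.11), 0.39 in hippocampus (-0.43 to 1.21) and -0.08 in olfactory bulb (-0.74 to 0.58), with adjusted p by limma of at least 0.910. Without the libraries poor in Rn45s it was 0.24 in hippocampus and 0.0067 in olfactory bulb, again not called. The intervals allow a change in either direction, so they do not show that the genotypes are alike. The ratio of Grm5 to Grm3 was 0.0469 in cortex controls and 0.0593 in cKO (exact permutation p = 0.286), 0.0942 and 0.0906 in hippocampus (p = 0.933) and 0.870 and 0.833 in olfactory bulb (p = 0.9), with n as above. The smallest adjusted p of these 3 tests was 0.367, adjusted over the 9 comparisons.

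Cortex P28 libraries came in 2 label rounds, and every later-round library lay below every first-round library for both genes. Grm3 was 3020 in controls and 2624 in cKO in the first round (2 and 3 libraries), and 2083 and 1940 in the later round (2 and 1). Grm5 was 165 and 172 in the first round and 83.3 and 79.6 in the later one. With the round as a covariate the genotype changes were -0.17 for Grm3 and 0.10 for Grm5, and neither was called. Grm4, which did not enter the cortex fit, was at 0 and 1.17 in first-round controls and at 16.8, 12.6 and 2.40 in first-round cKO, while the later round was at 0 throughout. Tested with no filter, its change was 2.14 (unadjusted p = 0.0245, adjusted p = 1.00, limma).

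**Figure D5:**
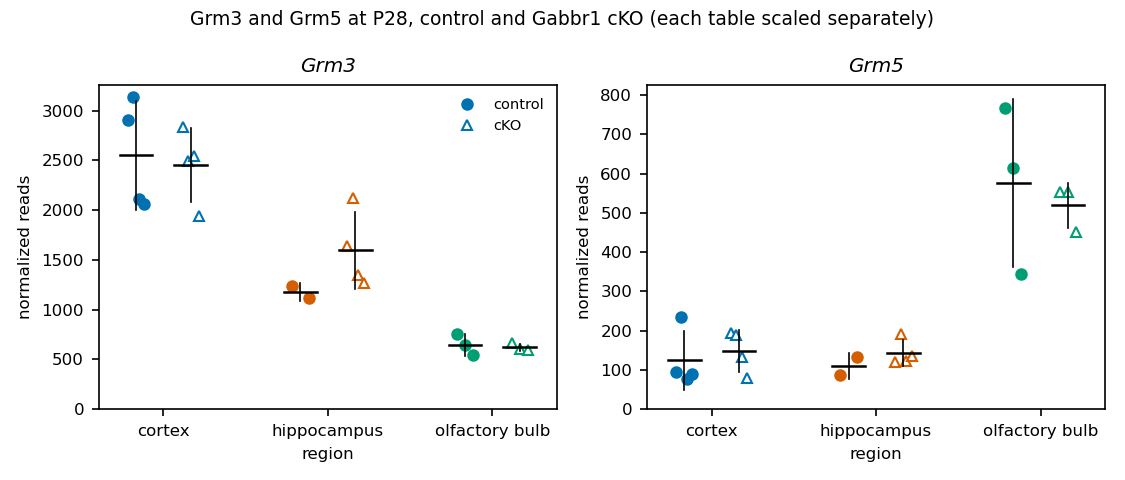
Normalized reads (linear axes) of Grm3, left, and Grm5, right, at P28 in control (filled circles) and Gabbr1 cKO (open triangles) libraries of each region; bars are group means, vertical lines ± 1 SD, and each region was scaled on its own. The genotypes overlap except for Grm3 in hippocampus, where the 4 cKO libraries lie between 1271 and 2123 and the 2 controls at 1115 and 1239.

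The low members at P28 rested on few reads. In hippocampus Grm7 was at 0 and 6.23 normalized reads in controls and at 0, 72.2, 3.99 and 11.6 in cKO. The high value is that of the library poor in Rn45s, replicate 2, whose neuron marker sum was 3077 against 1389-1916 in the other 5 hippocampus libraries. With it the change was 1.61 (95% interval -2.54 to 5.77, adjusted p = 0.936, limma), and without it 0.56; leaving out each library in turn gave 0.19 to 3.04. Grm8, which did not enter the hippocampus fit, was at 5.48 and 18.7 in controls and at 0, 0, 9.58 and 16.9 in cKO, and with no filter its change was -1.60 (adjusted p = 0.931, limma). In olfactory bulb Grm2 stood at 35.6, 1.70 and 6.62 in controls and at 18.1, 13.9 and 6.52 in cKO. Grm4 stood there at 6.89, 35.7 and 0.946 and at 6.02, 18.9 and 8.69, and Grm8 at 25.3, 11.9 and 7.57 and at 18.9, 15.9 and 18.8. The control and cKO libraries of these 3 genes overlapped, and their changes were 0.50, 0.42 and 0.40 (adjusted p at least 0.910, limma). The means ran the other way for Grm2, 14.6 in controls against 12.8 in cKO, and for Grm4, 14.5 against 11.2. By edgeR these changes were -0.21 and -0.30, and by DESeq2 -0.21 and -0.35, so their direction depends on the scale. Without control replicate 2, which is poor in Rn45s, the 3 limma changes were -0.37, 1.498 and 0.33.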

How the data were processed

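RNA-seq was measured in 48 libraries of mouse astrocytes, made with a low-input kit from picogram to nanogram amounts of RNA, per the labels' protocols. The submitters' processing notes name FastQC, MultiQC, STAR 2.5.0a, DESeq2 1.20.0 and the mm10 build, with no role for each. The counting program and strand setting are not given in the sources used here. What the authors deposited is a normalized signal for each gene, in 6 tables that were scaled on their own. Every value was a whole multiple of 1 step per library within 0.01, so reads were recovered by division and 100% came out whole. In olfactory bulb P28 cKO replicate 2 that step is close to 1 and the check is weak.

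Groups were taken from the labels. Genes whose mean over a table reached 10 were transformed as log2(value + 1) and compared with limma 3.58.1 (R 4.3.3, eBayes with trend). P values were adjusted over all genes tested (Benjamini-Hochberg) and called under 0.05. The design foresaw edgeR had the files held raw counts. The limma procedure was also run on simulated data, whose outcome is not given here and lends no support to the results. Alternatives were a pseudocount of 8, no filter, TMM scaling, edgeR 4.0.16 and DESeq2 1.42.0 on recovered reads, leaving out each library, the label round as a covariate in cortex P28 and, chosen after seeing the data, later library numbers as a covariate in olfactory bulb P28. Where no library of a group held more than 3 reads, the fold is a lower bound against 3 reads per library, which covers counting error only. Levels per kb used the exon union of GENCODE M21. The named genes are the 6 members, and from 5 lists of pathway genes at most 3 per direction, by their change in cortex, among those called in all 3 regions from P1 to P14. The 3 genes most like Grm3 and Grm5, the members tested in all 3 developmental tables, are also named. The members, lists and tests were chosen with earlier results of these data known. The ratio of Grm5 to Grm3 and the level per astrocyte marker were added after values had been seen. Up to 27 symbols had become dates in 5 of the tables, and the names of the same rows in the cortex P28 table were used.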

Additional observations from a re-analysis of the deposited data

Results flagged for a closer look

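Of 23 sets of values, each a member in a group of 4 libraries, 9 had 1 library far from the others. The usual rate of about 1 in 20 groups assumes normal values and does not hold near 0. A set with every library but 1 at 0 is always flagged. That was so for Grm2 in cortex P28 controls and cKO, and for Grm4 and Grm8 in the controls. The count is therefore not compared with that rate. Most of these values stand on few reads. The highest library was at 7.57 normalized reads for Grm2 and at 5.66 for Grm8 in cortex P14, at 1.38 for Grm2, 1.17 for Grm4 and 1.10 for Grm8 in cortex P28 controls, and at 0.959 for Grm2 and 6.72 for Grm7 in cortex P28 cKO. Grm5 was at 236 in 1 cortex P28 control, replicate 2, and under 95 in the other 3. Grm7 was at 72.2 in hippocampus P28 cKO replicate 2, one of the libraries poor in Rn45s.

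The change from P1 to P14 differed between regions by limma in 6 contrasts of 2 members. For Grm5 the difference was 2.68 between hippocampus and cortex, 6.32 between olfactory bulb and cortex, and 3.64 between olfactory bulb and hippocampus. For Grm3 the differences were 1.06, 2.65 and 1.59 in the same order.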

How the results depend on the processing

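Of the single-gene values recomputed under another setting, 255 kept their direction and side of the threshold, 6 lost a call, 4 gained one and 5 reversed. On leaving out 1 library, 367 kept both, 5 lost a call, 1 gained one and 11 reversed. All reversals were in values that were not called. With no filter, 4 members in place of 2 were called in hippocampus from P7 to P14 and 5 in place of 3 from P1 to P14, since Grm2 and Grm4 then entered. Hippocampus libraries held 5098757 to 8986015 reads at P1 and 2539583 to 4248087 at P14. Against the floor of 3 reads per library, Grm2 was at least 1.18-fold lower at P14 than at P1. For Grm4 the P1 mean of 2.95 lay under the P14 floor of 3.97, so these calls do not show a fall of Grm4. With TMM scaling 1 member in place of 2 differed in its change between hippocampus and cortex. In olfactory bulb P28 the change of Grm3 was 0.0064 with TMM scaling, that of Grm2 was -0.21 with both edgeR and DESeq2, and that of Grm4 was -0.30 with edgeR and -0.35 with DESeq2. Grm2 in cortex from P1 to P7 was called with a pseudocount of 8 (adjusted p = 0.0114, limma). The cause of these differences was not tested.

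Leaving out each library gave -1.01 to 0.21 for Grm8 in cortex from P1 to P7, and -0.14 to 0.064 for Grm3 in cortex P28. In olfactory bulb P28 the ranges were -0.37 to 1.51 for Grm2, -0.16 to 0.079 for Grm3, -0.62 to 1.498 for Grm4 and -0.41 to 0.17 for Grm5. The number of members called was 2 to 3 in cortex from P1 to P7, where the third was Grm7 without P7 replicate 3, and 4 to 5 from P7 to P14. No paired analysis was possible because no label pairs libraries of the groups compared. In olfactory bulb P28 1 control and 1 cKO library carry numbers in the range of the later cortex round, and with these as a covariate, chosen after seeing the data, 0 members were called, as without it. In hippocampus only 1 cKO library does, so that covariate equals leaving it out. Depth limits Grm2, Grm4, Grm7 and Grm8, which stood at 3 reads or fewer in several P14 libraries.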
